A study of Rattus norvegicus with 8 samples.

Results

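The 10 genes described here, *Fos*, *Fosb*, *Jun*, *Junb*, *Egr1*, *Egr2*, *Nr4a1*, *Arc*, *Atf3* and *Myc*, belong to the immediate early and injury response, and they were chosen by name, with earlier results of these data known, so their counts are descriptions and not independent evidence. Of 15159 genes named on the arrays they make up 9, each measured by 1 probe, since no probe was matched to *Fosb*. The rats were males of strain F344 ("F344N" in the labels), whose age is not given in the sources used here. All were held in SD (8 h light, 16 h dark) and carried a cannula into the third ventricle that had been tested with angiotensin 7 days earlier. At ZT 3 they received 5 μl of all-trans retinoic acid (RA) or vehicle through the cannula. Hypothalamic blocks that included the arcuate nuclei were collected after 24 hrs from 4 RA rats and 4 vehicle rats. The labels give RA at 1e-05 M and name the vehicle as saline, whereas the methods give 1e-04 M in saline with 10% DMSO, so the dose is not settled. RNA of RA rats and RNA of vehicle rats shared each of 8 two-colour Agilent arrays, with the dyes swapped on 4 of them. Rats without an injection were not analysed here, so every value compares RA with vehicle and none describes the injection itself.

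Immediate early genes are transcribed shortly after a cell is stimulated, from factors already present and without the need for new protein. FOS and JUN proteins pair to form AP-1, which binds DNA and controls later genes, EGR and NR4A proteins are transcription factors of the same early wave, and ARC acts at synapses. In neurons these genes are widely used as markers of recent activity, whereas ATF3 and MYC are also known for longer expression in damaged, inflamed or dividing cells.

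The Cy5 channel held RA on arrays 1, 3, 6 and 8 and vehicle on arrays 2, 4, 5 and 7. Row 1 of the slide carried arrays 1 to 4 and row 2 carried arrays 5 to 8, with 2 arrays of each dye order per row. The measure is the log2 ratio of RA over vehicle on each array after background correction and loess normalisation, so that 0 means an equal level and a positive value a higher level after RA. Levels are log2 intensities of 1 channel and are not compared between genes, because probes differ in brightness. It is not stated in the sources used here which arrays share RNA, so limma was run on all 24 ways of pairing arrays of opposite dye, and the largest p value of each probe is given. The threshold follows the study's methods, an unadjusted p under 0.01, and adjusted p values cover all 30367 probes. Where nothing ties arrays to single rats, the p values measure only the spread between these arrays. Markers of the labelled tissue were present, with 6 of 6 measured neuronal genes and 17 of 17 measured hypothalamic neuropeptide genes well above background on every array in at least 1 of the channels.

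*Atf3*, *Myc* and *Fos* rose past the threshold 24 hrs after RA, by 1.68-fold, 1.54-fold and 1.23-fold. *Junb* was 1.37-fold higher without passing it, and *Jun*, *Egr1*, *Egr2*, *Nr4a1* and *Arc* did not pass it either. Thus 3 of 9 measured genes of the group passed an unadjusted p under 0.01, against 4.31% of all named genes and 3.25% of all probes. All 3 were higher, as were 3.52% of named genes at that threshold, and 4 of 9 were higher at an unadjusted p under 0.05, against 8.48%. None of the 9 was lower at the first threshold, against 0.792% of named genes. The median log2 fold change of the 9 genes was 0.22, against -0.0046 over all named genes, and 7 of 9 were above 0, against 47.6%. The RA and vehicle levels overlapped for all 9, so 0 of 9 had every RA level above every vehicle level, against 0.264% of named genes. Limma gave no gene of the group an adjusted p under 0.05 (0 of 9, and 0 of all probes, where the lowest was 0.222), although 3292 probes had an unadjusted p under 0.05. According to the methods, the same samples were used again with the dyes swapped. A fit that takes the 8 arrays as independent ignores this and treats repeated RNA as new samples. In such a fit with a dye term, 934 probes had an adjusted p under 0.05 in limma. Among them were those of *Myc* with 0.0281, *Atf3* with 0.0435 and *Fos* with 0.0495. With the pair as a random block 292 probes had an adjusted p under 0.05 in limma, but no gene of the group (0 of 9), and *Myc* was lowest with 0.0676. In bulk tissue, a change in the number of cells of a type and a change in RNA per cell cannot be told apart.

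**Figure D1:**
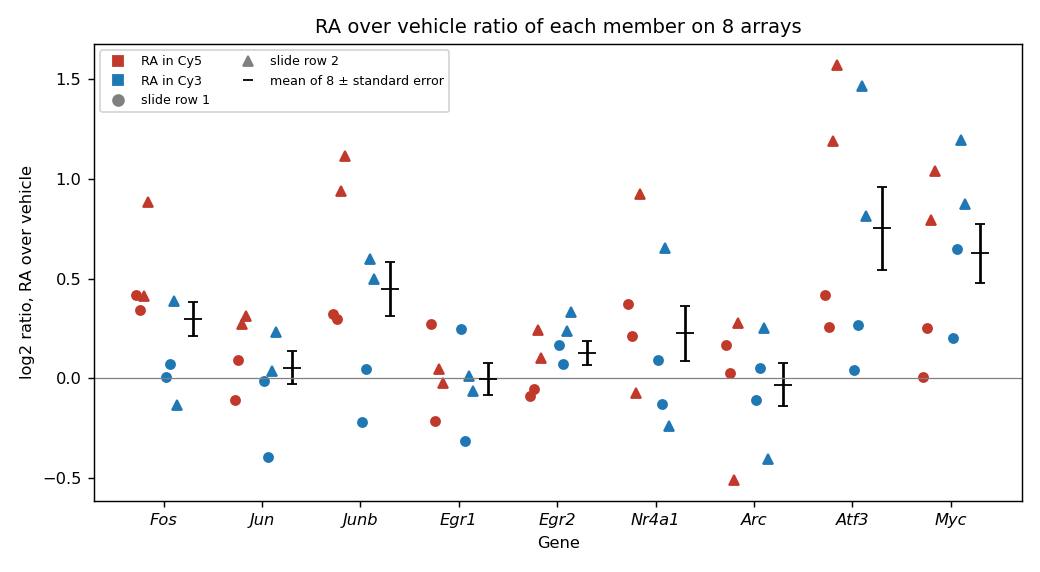
Log2 ratio of RA over vehicle for the 9 measured genes, with 1 point per array coloured by dye order and shaped by slide row, and in black the mean of 8 arrays with the standard error of the pairing that gave the largest p. *Atf3* and *Myc* lie above 0 on all 8 arrays, from 0.04 to 1.57 and from 0.01 to 1.20, while *Egr1* and *Arc* scatter on both sides of 0.

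Among the AP-1 subunits, *Fos* encodes the partner that needs a JUN protein to bind DNA. The level of *Fos* (probe A_64_P131051, log2 intensity) had a lowest value of 7.48, a median of 8.37 and a highest value of 8.65 in the RA channel, and 7.24, 8.00 and 8.45 in the vehicle channel. The groups overlapped, and in both channels the level was lowest on arrays 1 and 2. Within arrays the ratio ran from -0.13 to 0.88 with a median of 0.37, and it was above 0 on 7 of 8 arrays, array 7 being the exception. The mean of the 8 ratios, the log2 fold change, was 0.30 ± 0.085 (SE, 4 pair means), with a limma p of 0.00983 and an adjusted p of 0.306. As the largest p is given, it was under 0.01 in 24 of 24 pairings by construction, and the lowest was 1.54e-04. The arrays with RA in Cy5 gave *Fos* ratios between 0.34 and 0.88 with a mean of 0.51, whereas those with RA in Cy3 gave ratios between -0.13 and 0.39 with a mean of 0.08. This difference between dye orders of 0.43 ± 0.16 (SE) had a limma p of 0.0286 and an adjusted p of 0.294, and 4.1% of named genes differed between dye orders at a p under 0.01. On the arrays of 1 dye order alone, *Fos* had a limma p of 7.96e-04 with RA in Cy5 and of 0.377 with RA in Cy3.

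*Junb* encodes a JUN protein that pairs with FOS proteins and, in many settings, restrains JUN. Its level was 10.02 at the lowest, 11.20 at the median and 11.66 at the highest in the RA channel, and 10.06, 10.74 and 11.01 in the vehicle channel. The groups overlapped, yet the RA level exceeded the vehicle level of the same array on 7 of 8 arrays, array 2 being the exception with a ratio of -0.22. The ratio was highest on array 8 with 1.12 and on array 6 with 0.94. *Junb* had a log2 fold change of 0.45 ± 0.136 (SE, 4 pair means), with a limma p of 0.0127 and an adjusted p of 0.324. The p was under 0.01 in 21 of 24 pairings. The ratios of erythrocyte genes were alike within arrays 1 and 2 (median -0.37 and -0.42), 3 and 4 (0.93 and 0.85), 5 and 8 (-0.89 and -0.77) and 6 and 7 (0.26 and 0.13), a hint from the data at which arrays share RNA. In that single pairing *Junb* had a limma p of 0.0117, *Fos* of 0.00925, *Atf3* of 0.00735 and *Myc* of 0.00360. There 4.57% of named genes passed. *Junb* did not pass, and the other 3 passed by construction, because their largest p over all pairings was under 0.01. *Jun*, the founding JUN gene, had RA levels of 9.89 at the lowest, 10.42 at the median and 10.57 at the highest, and vehicle levels of 9.86, 10.31 and 10.75. Its ratios lay on both sides of 0, from -0.40 on array 4 to 0.31 on array 8, and 5 of 8 were positive. Over the 8 arrays the log2 fold change was 0.05 ± 0.083 (SE) with a limma p of 0.545.

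The promoters of *Junb* and *Nr4a1* are shown because, of the 5 genes of the group in the RefSeq promoter table (*Fosb*, *Junb*, *Egr1*, *Egr2* and *Nr4a1*, build GRCr8), these had the largest log2 fold changes. Each spans 250 bases before to 50 bases after the transcription start on the plus strand, *Junb* at chr19:40080876-40081175 and *Nr4a1* at chr7:134259888-134260187, and capitals mark TGACG or its reverse complement CGTCA, the half-site of the cyclic AMP response element (CRE).
Junb: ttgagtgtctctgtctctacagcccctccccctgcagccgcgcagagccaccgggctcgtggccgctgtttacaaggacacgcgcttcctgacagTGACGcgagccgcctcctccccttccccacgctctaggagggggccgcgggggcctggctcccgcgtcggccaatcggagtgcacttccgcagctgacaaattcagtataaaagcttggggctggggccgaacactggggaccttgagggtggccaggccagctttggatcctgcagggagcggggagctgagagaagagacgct
Nr4a1: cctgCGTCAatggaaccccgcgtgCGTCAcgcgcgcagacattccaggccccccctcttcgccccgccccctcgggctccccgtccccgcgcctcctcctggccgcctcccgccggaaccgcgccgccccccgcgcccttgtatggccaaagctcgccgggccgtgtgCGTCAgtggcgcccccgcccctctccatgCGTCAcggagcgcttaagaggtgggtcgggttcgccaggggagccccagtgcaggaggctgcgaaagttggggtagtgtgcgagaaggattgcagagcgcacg
*Junb* held 1 half-site, 155 bases before the start (counted to its first base), and *Nr4a1* held 4, at 246, 226, 82 and 53 bases before it. A half-site was present in 21.2% of the 33469 promoters of the table. *Egr1* held 2, *Egr2* held 1 and *Fosb* held 0. Both strands were searched, and none of these 5 promoters held the full CRE TGACGTCA, which contains the half-site and occurs in 1.83% of promoters, or the AP-1 site TGANTCA, which occurs in 7.33%. The CArG box, bound by serum response factor, was found in *Egr1* (2 matches) and *Egr2* (1 match) and occurs in 1.64% of promoters. The matches describe letters only. *Fos*, *Jun*, *Arc*, *Atf3* and *Myc* were not matched in the table.

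*Egr1* and *Egr2* encode zinc finger factors of the early growth response family, *Egr1* being a standard marker of neuronal activity and *Egr2* a regulator of myelination in peripheral nerve. The level of *Egr1* was 7.58, 7.86 and 7.99 (lowest, median and highest) in the RA channel and 7.52, 7.79 and 8.30 in the vehicle channel, and the groups overlapped. Its ratio was positive on 4 arrays and negative on 4, from -0.31 on array 4 to 0.27 on array 1. For *Egr1* the log2 fold change was -0.0045 ± 0.081 (SE) with a limma p of 0.957. *Egr2* was well above background on 2 of 8 arrays in the RA channel and on 0 of 8 in the vehicle channel, so its ratio compares values near the limit of the arrays. Those 2 arrays, 6 and 8, both had RA in Cy5. The level of *Egr2* ran from 6.26 to 6.68 in the RA channel and from 6.23 to 6.44 in the vehicle channel. The ratio of *Egr2* was positive on 6 of 8 arrays, from -0.09 to 0.33, with a log2 fold change of 0.13 ± 0.059 (SE) and a limma p of 0.0693. With plain background subtraction it was 0.65 and with Agilent's log ratio 0.53, so its size depended on the background correction.

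*Nr4a1* encodes an orphan nuclear receptor that is induced with *Fos* and *Egr1* in many cells. The level of *Nr4a1* was 8.95, 9.72 and 9.94 (lowest, median and highest) in the RA channel and 8.59, 9.39 and 9.97 in the vehicle channel, and the groups overlapped. The ratio was highest on arrays 8 and 5, with 0.92 and 0.65, and lowest on array 7 with -0.24, and 5 of 8 were positive. *Nr4a1* had a log2 fold change of 0.22 ± 0.138 (SE), 1.17-fold, with a limma p of 0.145, and the p was under 0.01 in 4 of 24 pairings. Without arrays 8 and 5 it was 0.04 with a limma p of 0.669. *Arc*, whose protein regulates glutamate receptors at active synapses, had levels of 8.44, 8.64 and 8.81 after RA and 8.41, 8.65 and 8.95 after vehicle. Its ratio was negative on arrays 2, 6 and 7, the last pair with -0.51 and -0.41, and positive on the other 5. *Arc* had a log2 fold change of -0.03 ± 0.109 (SE), with a limma p of 0.777.

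*Atf3* encodes a stress-induced factor of the ATF/CREB family that is a standard marker of injured neurons and is also induced in glia and immune cells. The level of *Atf3* was 7.73, 8.80 and 9.49 (lowest, median and highest) in the RA channel and 7.57, 7.88 and 8.56 in the vehicle channel. The groups overlapped over all arrays, but on each array the RA level was the higher. The ratios were 0.42, 0.04, 0.25 and 0.27 on arrays 1 to 4 and 1.47, 1.19, 0.81 and 1.57 on arrays 5 to 8. The arrays of row 2 thus all lay above those of row 1. For *Atf3* the log2 fold change was 0.75 ± 0.208 (SE, 4 pair means), with a limma p of 0.00832 and an adjusted p of 0.297. As this is the largest p, it was under 0.01 in 24 of 24 pairings by construction. With RA in Cy5 the mean was 0.86 and with RA in Cy3 0.65, a difference with a limma p of 0.616.

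*Myc* encodes a transcription factor that drives growth, ribosome production and division. The level of *Myc* was 7.73, 8.49 and 9.12 (lowest, median and highest) in the RA channel and 7.61, 7.79 and 8.08 in the vehicle channel, the narrowest vehicle range among *Fos*, *Junb*, *Atf3* and *Myc*. The groups overlapped on arrays 1 and 2, whose RA levels were 7.73 and 7.81, whereas the RA levels of arrays 3 to 8 were all above the highest vehicle level. The ratios were 0.01, 0.20, 0.25 and 0.65 on arrays 1 to 4 and 1.20, 0.79, 0.87 and 1.04 on arrays 5 to 8, again with every array of row 2 above every array of row 1. For *Myc* the log2 fold change was 0.63 ± 0.148 (SE, 4 pair means), with a limma p of 0.00360 and an adjusted p of 0.268. This was the lowest p of the group, and by p *Myc* ranked 287 of the 15159 named genes. The ratio was above 0 on 8 of 8 arrays for *Atf3* and *Myc*, 2 of the 9 genes, against 4.08% of named genes. For *Fos*, *Junb*, *Atf3* and *Myc* the 4 pair means were also compared with 0 by flipping their signs in all ways (exact permutation test, two-sided), and p = 0.125 in every pairing, the smallest p that 4 pairs allow.

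**Figure D2:**
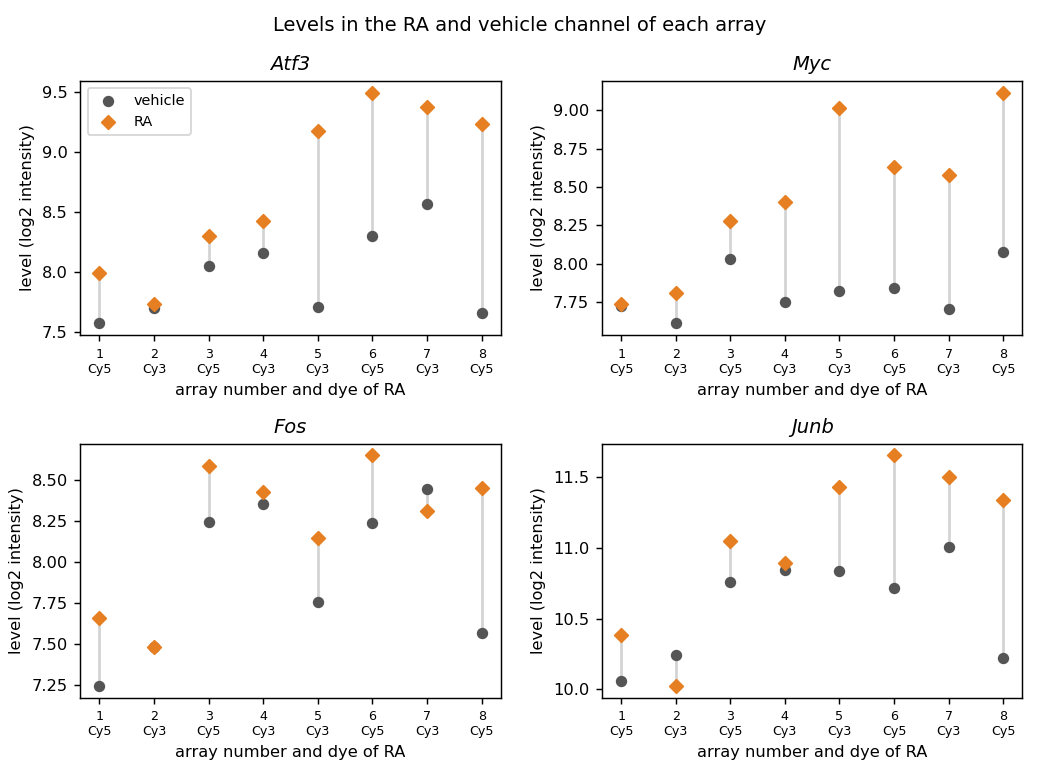
Level (log2 intensity after normalisation) of *Atf3*, *Myc*, *Fos* and *Junb* in the RA channel (diamonds) and the vehicle channel (circles) of each array, with the dye of RA under the array number and a line joining the channels of an array. The vertical axes differ between panels and do not start at 0. The RA levels of *Atf3* rise above 9 on arrays 5 to 8, where the vehicle levels stay between 7.66 and 8.56.

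The size of the difference varied with the slide row. For *Atf3* the mean ratio was 0.24 in row 1 and 1.26 in row 2, a difference of 1.02 with a limma p of 9.55e-04 and an adjusted p of 0.173. The difference between rows was 0.68 for *Junb* (0.11 against 0.79, limma p of 4.28e-04) and 0.70 for *Myc* (0.28 against 0.98, limma p of 0.00294). Thus 3 of the 9 genes differed between rows at a p under 0.01, against 3.02% of named genes. *Jun* differed by 0.32 with a limma p of 0.0339, and *Fos* by 0.18 with a limma p of 0.312. Each row gave 2 pair means, so these fits rest on few RNA samples. Within row 1 none of the 9 passed the threshold in limma (0 of 9, against 2.94% of named genes), *Atf3* having a p of 0.0102, *Myc* 0.0103 and *Fos* 0.0114. Within row 2 the log2 fold change was 1.26 for *Atf3*, 0.98 for *Myc* and 0.79 for *Junb*, and these 3 passed, against 6.51% of named genes, with limma p values of 5.12e-05, 4.28e-05 and 6.38e-05. With the row as a block *Junb* passed as well (limma p of 8.15e-05), beside *Atf3*, *Myc* and *Fos*, 4 of 9 against 6.86% of named genes. Each row may hold RNA of different rats, so row and rat cannot be told apart.

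The marker lists of reactive astrocytes and of monocytes and macrophages had a higher median ratio on every array of row 2 than on any array of row 1. The medians of the other lists in this paragraph overlapped between the rows, and no list was tested between rows. Of all named genes 3.52% rose and 0.792% fell past the threshold. Among reactive astrocyte markers 8 of 9 rose past it, with a median log2 fold change of 1.40. Their median ratio was 0.47 to 0.79 on arrays 1 to 4 and 1.69 to 2.67 on arrays 5 to 8. *Gfap*, the filament protein of astrocytes, rose by 1.40 on the log2 scale. The summed intensity of the list was 7198 to 27678 in RA and 3900 to 5716 in vehicle. Among 7 other astrocyte markers *Gja1* fell (-0.22) and 0 rose past the threshold. Of these 7, 2 were above 0, and the median was -0.17. Among 7 monocyte and macrophage markers 4 rose, *Cd14*, *Lyz2*, *Lgals3* and *Fcgr1a*, and the list median was 1.11. *Cd163* (0.17), *Mrc1* (0.06) and *Ccr2* (0.12) did not pass the threshold. The median ratio of the list was 0.40 to 0.72 on arrays 1 to 4 and 1.29 to 1.78 on arrays 5 to 8. Its summed intensity was 15619 to 66064 in RA and 8094 to 16121 in vehicle. *Ccr2*, which marks blood monocytes, was well above background on 1 array in RA and 0 in vehicle, and the neutrophil markers *Elane* and *Mmp8* were at background. *S100a9* rose, as 1 of 7 measured neutrophil genes, and the median of that list was 0.05. Among 9 microglial markers *Aif1* (0.88), *Itgam* (0.87) and *C1qa* (0.83) rose and *Tmem119* fell (-0.52), with a median of 0.08. Among 7 oligodendrocyte markers *Olig2* fell (-0.19) and 5 had an unadjusted p under 0.05, against 3292 of 30367 probes. All 7 were below 0, with a median of -0.19. Among 6 measured neuronal markers 2 fell and 0 rose, with a median of -0.16. The part of these cells in the ratios of *Atf3*, *Myc*, *Junb* and *Fos* was not tested.

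**Figure D3:**
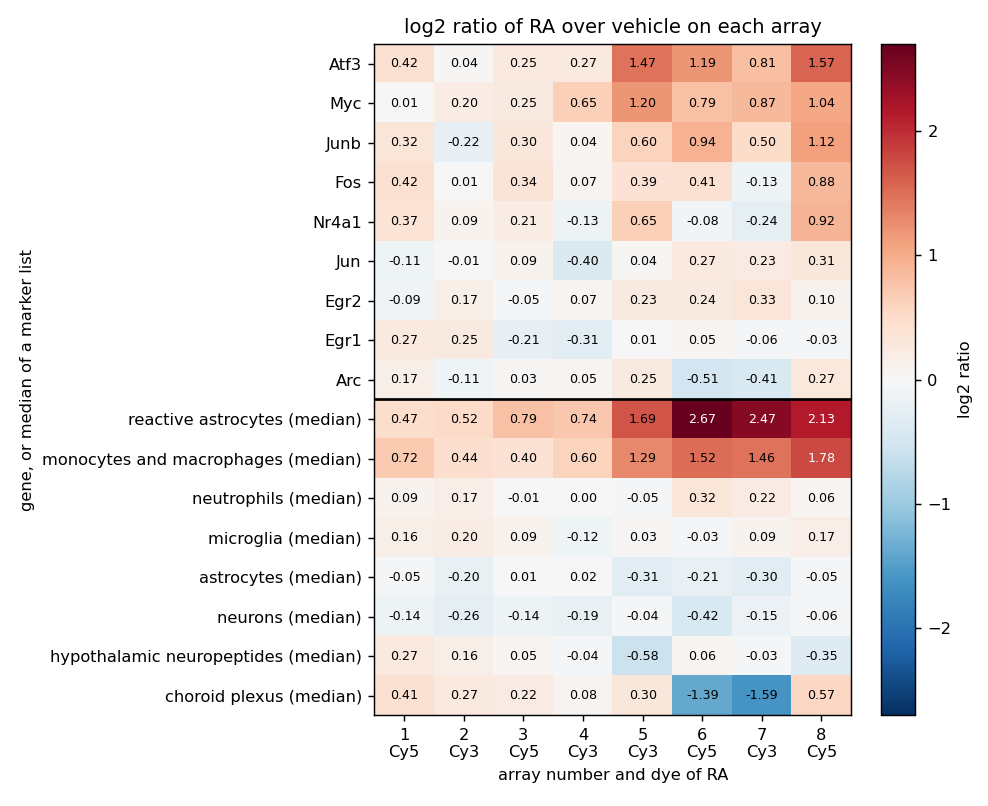
Log2 ratio of RA over vehicle on each of the 8 arrays for the 9 genes (above the line) and the median ratio of 8 marker lists (below it), with the dye of RA under the array number. *Atf3*, *Myc* and *Junb* are higher on arrays 5 to 8 than on arrays 1 to 4, as are the reactive astrocyte and the monocyte and macrophage lists, and the choroid plexus list is low on arrays 6 and 7.

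Arrays 6 and 7 stood apart in choroid plexus genes, with a median ratio of -1.39 and -1.59 against 0.08 to 0.57 on the others. Without them limma called none of the 9 genes (0 of 9, against 2.54% of named genes, with *Fos*, *Atf3*, *Myc* and *Nr4a1* at an unadjusted p under 0.05). The log2 fold changes were then 0.35 for *Fos* (limma p of 0.01002), 0.67 for *Atf3* (limma p of 0.0373) and 0.56 for *Myc* (limma p of 0.0171). Arrays 8 and 5 had the lowest median ratio of hypothalamic neuropeptide genes, -0.35 and -0.58. Without those, *Myc* was the 1 gene of the 9 called, against 2.12% of named genes, with a log2 fold change of 0.46 (limma p of 0.00886), beside 0.50 for *Atf3* (limma p of 0.0195) and 0.19 for *Fos* (limma p of 0.0154). Leaving out each of the 16 possible pairs of arrays with opposite dye orders kept *Fos* between 0.19 and 0.36, *Atf3* between 0.50 and 0.95 and *Myc* between 0.46 and 0.80. *Fos* stayed past the threshold in 4 of 16, without arrays 1 and 7, 3 and 7, 6 and 5, or 8 and 7. None of these 4 is a pair hinted at by the erythrocyte genes, so RNA of the removed arrays may remain in the fit. For the hinted pairs *Fos* had a limma p of 0.0201 without arrays 1 and 2 and of 0.0172 without arrays 3 and 4. The values without arrays 6 and 7 or 8 and 5 are given above, and they did not pass either. *Atf3* stayed in 10 of 16 and lost its call without arrays 1 and 7, 6 and 4, 6 and 5, 6 and 7, 8 and 5, or 8 and 7. *Myc* stayed in 12 of 16 and lost it without array 6 together with 4, 5 or 7, or without arrays 8 and 7. *Junb* passed in 6 of 16, without array 2 together with 1, 3, 6 or 8, or without array 3 together with 4 or 5.

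The genes around these 9 were counted in 6 lists, of which 113 of 126 genes were measured. At the threshold 15 rose and 0 fell, against 3.52% and 0.792% of named genes, and their median log2 fold change was 0.06. Among AP-1 relatives 4 of 15 measured genes rose, and the median was 0.05. *Batf* rose by 0.70 ± 0.198 (SE) and *Batf3* by 0.52 ± 0.116 (SE) on the log2 scale, with limma p values of 0.00962 and 0.00271. BATF proteins pair with JUN proteins in immune cells. Another was *Fosl1*, a FOS relative, with 0.23 (limma p of 0.00943), named after its value was seen. In vehicle *Batf*, *Batf3* and *Fosl1* were well above background on only 3, 2 and 1 arrays. The sizes of the differences of *Batf* and *Batf3* depended on the background correction, and *Fosl1* was not examined under another correction. With plain subtraction *Batf* was 1.82 and *Batf3* 1.33, and with Agilent's log ratio 1.99 and 1.499. *Batf* did not pass in row 1 alone (0.23, limma p of 0.0635) and passed with 7 of 16 pairs of arrays left out. *Jund*, the JUN gene expressed without stimulation, had a log2 fold change of 0.04 (limma p of 0.673), a gene also named after its value was seen.

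Among 17 other immediate early transcription factors none passed the threshold in limma (0 of 17), 3 had an unadjusted p under 0.05, and the median was 0.07. *Klf6*, a zinc finger transcription factor, was higher on 8 of 8 arrays with 0.24 ± 0.081 (SE, limma p of 0.0199). *Npas4*, which neurons induce on calcium entry, was at background. Among 27 early effectors none passed either (0 of 27), 7 had an unadjusted p under 0.05, and the median was 0.06. *Dusp5*, a phosphatase that switches off ERK, was higher on 8 of 8 arrays with 0.18 ± 0.067 (SE, limma p of 0.0281). *Ptgs2*, the inducible cyclooxygenase, was at background. Among 14 measured upstream regulators none passed (0 of 14), 2 had an unadjusted p under 0.05, and the median was 0.03. *Mapk14*, the p38 stress kinase, was higher on 8 of 8 arrays with 0.14 ± 0.048 (SE, limma p of 0.0196).

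Of 20 measured injury and stress genes 6 rose and 0 fell, with a median of 0.04, so that a few genes moved far and most did not. *Hspb1*, which encodes a small heat shock protein, rose by 2.21 ± 0.269 (SE, limma p of 6.17e-05), *Cebpd* by 1.56 ± 0.242 (SE, limma p of 3.00e-04) and *Cebpb* by 0.94 ± 0.246 (SE, limma p of 0.00629) on the log2 scale. The C/EBP factors control acute phase and inflammatory genes. All 3 were higher on 8 of 8 arrays, with 1.57 in row 1 and 2.84 in row 2 for *Hspb1*, 0.99 and 2.12 for *Cebpd*, and 0.30 and 1.59 for *Cebpb*. *Cebpb* did not pass without arrays 6 and 5, 6 and 7, 8 and 5, or 8 and 7, where it was between 0.72 and 0.74. *Il6* was at background. Of 21 measured genes of the MYC network 5 rose and 0 fell, with a median of 0.08. *Ccnd1*, a cyclin of the first cell cycle phase, rose by 0.52 ± 0.086 (SE, limma p of 4.52e-04), *Fbl*, which modifies ribosomal RNA, by 0.36 ± 0.089 (SE, limma p of 0.00456), and *Cdk4*, the kinase partner of cyclin D, by 0.34 ± 0.071 (SE, limma p of 0.00198). The others called were *Odc1* and *Ldha*, with ratios above 0 on 7 and on 5 of 8 arrays. *Max*, the partner MYC needs to bind DNA, had a log2 fold change of 0.03 (limma p of 0.673) and was named after its value was seen.

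**Figure D4:**
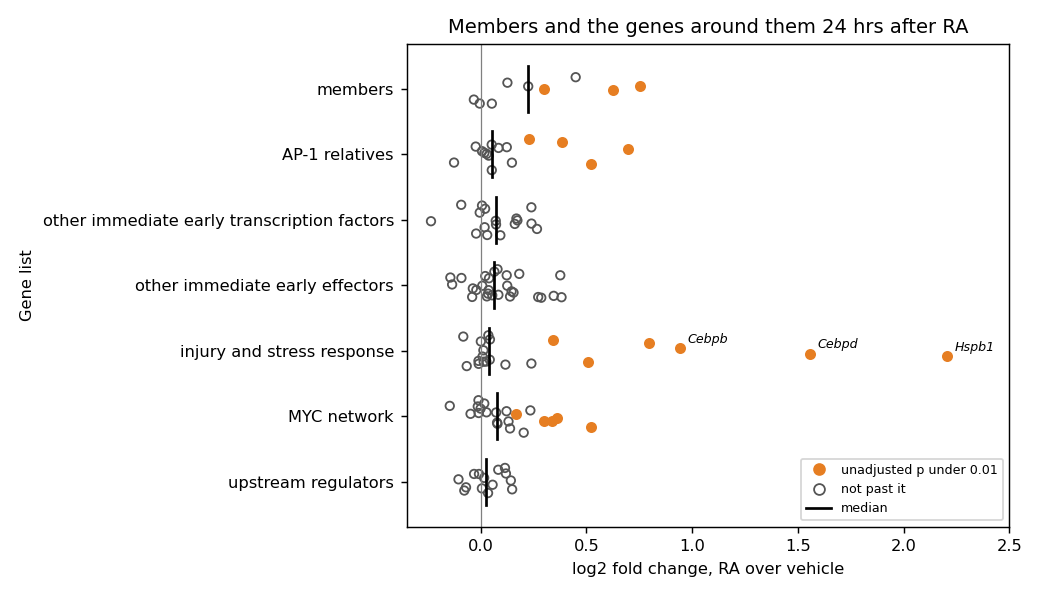
Log2 fold change of RA over vehicle for each measured gene of the 9-gene group and of 6 lists around it, 1 point per gene with a small vertical jitter, filled where the unadjusted p was under 0.01 and with the list median as a bar. The filled points all lie to the right of 0, *Hspb1*, *Cebpd* and *Cebpb* lie farthest out at 2.21, 1.56 and 0.94, and the list medians lie between 0.03 and 0.08 against 0.22 for the 9 genes.

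The genes most like *Atf3*, *Myc* and *Fos* were found by the root mean square difference in log2 ratio over the 8 arrays, among 10877 genes well above background. For *Atf3* these were *Kcnn4* (difference 0.113), *Rasal3* (0.118) and *Cxcl16* (0.193), with log2 fold changes of 0.77, 0.73 and 0.74. *Kcnn4* encodes a calcium-activated potassium channel and *Cxcl16* a chemokine. For *Myc* they included *Birc3* (difference 0.168) and *Skap2* (0.173), with log2 fold changes of 0.63 and 0.73. *Birc3* encodes an inhibitor of apoptosis. For *Fos* they were *Sfnl1* (difference 0.151), *Ifngr2* (0.158) and *Akna* (0.166), with log2 fold changes of 0.23, 0.24 and 0.26. These are among the closest 3 of many genes on arrays that share RNA and slide, and no test is attached to them. Their log2 fold changes lie near that of the gene they were matched to because of how they were selected.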

How the data were processed

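Hypothalamic RNA of 4 RA and 4 vehicle rats was measured on 8 two-colour arrays of 62976 spots. Files deposited by the authors hold linear spot intensity values of both dyes, Agilent's log10 ratio and a table of normalised log2 ratios, and their methods name limma, loess and dye-swaps as a block. Here (R 4.3.3, limma 3.58.1) spot and background medians were corrected by normexp with an offset of 50, control spots and outlier spots (0.913% to 2.42% per array) were dropped, loess was applied within arrays and spots of a probe were averaged. Ratios were turned so that positive is higher after RA. Levels are channel log2 intensities after Aquantile scaling. A probe was well above background where Agilent's mark held for at least 0.5 of its spots. Means of 4 dye-swap pairs were fitted with an intercept and moderated variances, with Benjamini-Hochberg adjustment over 30367 probes. Slide rows were compared as a split of the arrays that may also separate rats. Names for 18006 probes came from transcript accessions of RefSeq GRCr8, and a gene was represented by its brightest probe. The 10 genes and all lists were chosen with earlier results of these data known. Genes named from the lists are those past the threshold with the largest changes (up to 3 rises and 2 falls a list), otherwise the largest with 1 sign on 8 arrays. A few genes that this rule picks are not reported here. The number of arrays limits the precision. Alternatives covered background correction, scaling, deposited values, probe filters, pairings, blocks, single dye orders and rows, and pairs of arrays left out.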

Additional observations from a re-analysis of the deposited data

Results flagged for a closer look

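Of 54 sets of 4 values searched (ratios or levels of the 9 genes within a dye order), 2 held a value far from the other 3, where chance alone gives about 1 in 20. The ratio of *Fos* on array 8 was 0.88, against 0.34 to 0.42 on the other arrays with RA in Cy5. The level of *Nr4a1* in the RA channel of array 2 was 8.95, against 9.71 to 9.77 on the other arrays with RA in Cy3.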

How the results depend on the processing

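Over 36 alternatives, *Fos* (0.08 to 0.51), *Atf3* (0.24 to 1.26), *Myc* (0.28 to 0.98) and *Junb* (0.11 to 0.79) kept a positive log2 fold change. An unadjusted p under 0.01 in limma was kept by *Myc* in 28, *Atf3* in 23 and *Fos* in 13, and reached by *Junb* in 13. These counts include Aquantile scaling and the single pairings, which could not lose a call of *Myc*, *Atf3* or *Fos*. Aquantile scaling leaves the ratios unchanged, and the largest p over all pairings is the one given. The number of the 9 genes past the threshold (3) was 0 with plain subtraction, with Agilent's log ratio and in row 1 alone, 1 with the deposited values, with only bright probes, with RA in Cy3 alone and with the mean over all probes of a gene, 5 in the pairing with the most calls, and 0 to 3 with a pair of arrays left out. With only bright probes and with the mean over probes, the log2 fold changes of *Fos*, *Atf3* and *Myc* were unchanged. Only their moderated variances differed there. Genes of the 6 lists (15) came to 5 with plain subtraction, 6 with Agilent's log ratio, 9 in row 1, 25 in row 2, 23 with the row as a block, 24 with the pair as a random block, 30 with independent arrays, 35 in the pairing with the most calls, and 6 to 20 with a pair left out. All probes (988) came to 237 with plain subtraction, 330 with Agilent's log ratio, 1596 with the row as a block, 1697 with the random block, 2169 with RA in Cy5 alone, 2320 with RA in Cy3 alone, 2483 with independent arrays, 3141 in the pairing with the most calls, and 456 to 1110 with a pair left out. What caused the other changes in these counts was not tested. Values near 0 changed sign. *Jun* was -0.036 with RA in Cy3 alone and -0.11 in row 1, and -0.020 to 0.16 with a pair left out. *Egr1* was 0.0026 without background correction and with the deposited values, 1.92e-04 with plain subtraction and 0.021 with RA in Cy5 alone, and -0.093 to 0.082 with a pair left out. *Arc* was 0.033 in row 1, and -0.13 to 0.11 with a pair left out. Aquantile scaling leaves the ratios as they are by construction. Each array pairs RA with vehicle and the test uses dye-swap pair means, so the comparison is already paired. In the single pairing 1 with 2, 3 with 4, 6 with 7 and 8 with 5, which is also that with the fewest calls, 3 of the 9 genes, 15 list genes and 1081 probes passed.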
